A study of Mus musculus with 25 samples.

Results

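The hairpins described here are those of the mouse microRNA families mir-297, mir-466, mir-467 and mir-669, most of which lie inside the gene Sfmbt2. They were chosen by name, as every precursor of the deposited count table called mir-297, mir-466, mir-467 or mir-669 with any letter and copy number, whatever its counts. The rule took 82 of the 1193 precursors, namely 6 of mir-297, 29 of mir-466, 17 of mir-467 and 30 of mir-669. They carry 44 microRNA names once copies with the same letter are taken as 1. Small RNA was sequenced from the blood of male mice of the inbred strain C57BL/6 with the TruSeq small RNA kit. There were 5 libraries at each of 2, 9, 15, 24 and 30 months of age, 25 in all, with no treatment or allele named for any group. Each library carries a number of its own in the labels, but nothing states that the 5 libraries of an age are separate animals. P-values therefore measure the spread between these libraries, which may in part be technical.

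A microRNA hairpin is a folded RNA from which a short mature strand is released. Bases 2 to 8 of that strand, the seed, largely set which messenger RNAs it pairs with. The Sfmbt2 cluster is a rodent-specific array of hairpins repeated many times in an intron of Sfmbt2, a Polycomb-group gene that in the placenta is expressed from the paternal copy. It is known for its abundance in placenta and embryonic stem cells. By naming convention, hairpins that differ only in a final number are copies that give the same mature strand, so a read of that strand cannot be tied to 1 copy.

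Sequences are shown first, because runs of alternating bases are typical of these families. The RefSeq table used here (assembly GRCm38.p6) matched 9 of the 82 hairpins, all outside the Sfmbt2 array, with 8 mature strands among them. Each is written 5′ to 3′ with its seed in capitals.

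mir-466i-3p: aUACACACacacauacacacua

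mir-466q: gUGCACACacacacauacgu

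mir-467f: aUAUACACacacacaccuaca

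mir-467g: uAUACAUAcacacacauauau

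mir-466k: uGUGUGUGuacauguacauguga

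mir-466j: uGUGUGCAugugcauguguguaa

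mir-467h: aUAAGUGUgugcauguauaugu

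mir-669n: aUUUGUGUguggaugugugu

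The first 4 are rich in CA and the last 4 in UG. A run of at least 4 copies in a row of CA, AC, UG or GU occurs in 6 of these 8 strands, against 13 of the 1738 mature strands of the whole table (0.748%). The 8 seeds are all different, so no 2 of these strands share a seed. The 4 CA-rich strands lie at chr13:17747552-17747573 (mir-466i-3p, plus strand), chr3:28419988-28420007 (mir-466q, plus strand), chr11:69635419-69635439 (mir-467f, minus strand) and chr5:34732872-34732892 (mir-467g, minus strand). The mir-466q hairpin lies in an intron of Tnik, which encodes a kinase, and the other 3 in no gene on their strand. Over the 25 libraries mir-466i had 168 counts, mir-466q 134, mir-467f 71 and mir-467g 3. Of the UG-rich strands, mir-466k had 65 counts, while mir-466j, mir-467h and mir-669n had 0. These totals are of hairpins, whose strands the table does not separate.

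Of the 82 hairpins, 71 lay in Sfmbt2, 10 lay elsewhere and 1, mir-466a, was not placed. Positions are those of the named hairpins in GENCODE vM21 on GRCm38, and no source used here names the build of the authors. The Sfmbt2 gene spans chr2:10370510-10595253, and the array ran from 10466663 to 10518279 on chromosome 2, a stretch of 51.6 kb on the plus strand. All 71 were intronic and none overlapped an exon of Sfmbt2. The array sat between exons 10 and 11 of 1 Sfmbt2 transcript, and between exons 11 and 12 of another. In 12 places a mir-467, a mir-466 and a mir-669 hairpin followed each other in that order. Starts of successive triplets were a median of 2452 bp apart, and 10 of the 11 spacings were between 2300 and 2600 bp. Among the 1158 of 1193 precursors with a GENCODE position, no other lay inside Sfmbt2.

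**Figure D1:**
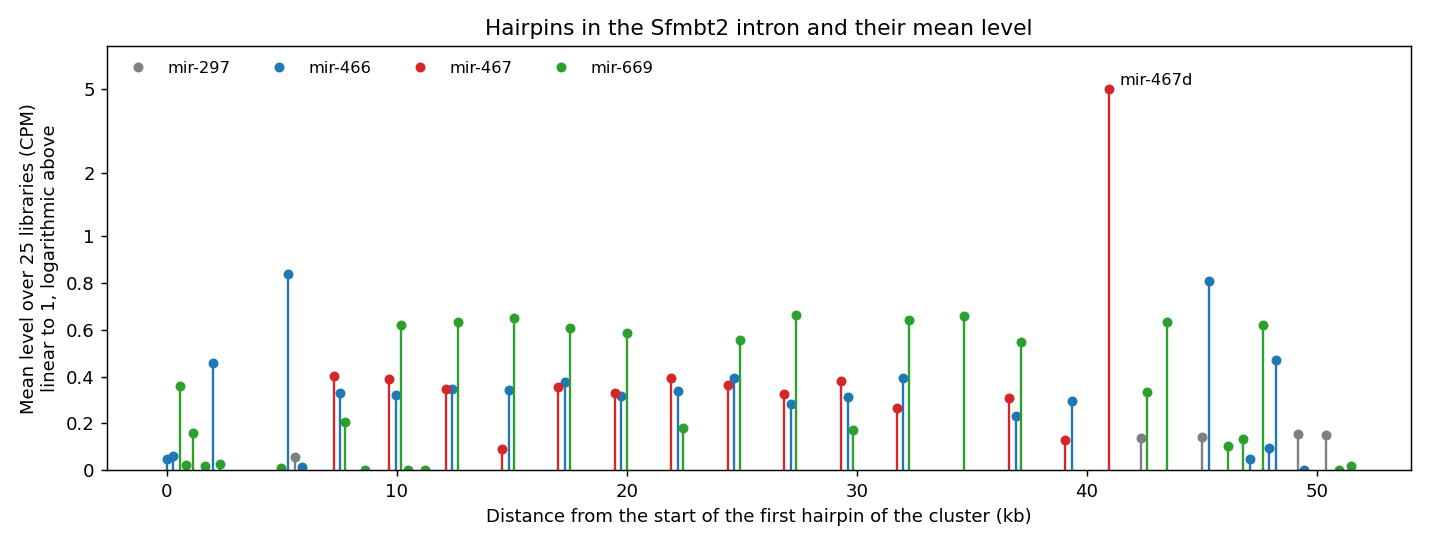
Mean level over 25 libraries (CPM, linear to 1 and logarithmic above) of the 71 hairpins in the Sfmbt2 intron, against distance in kb from the first hairpin, coloured by family. mir-467d stands at 5.01 CPM, and every other hairpin is under 1 CPM.

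The hairpins were a very small part of blood microRNA. Together they held 10773 counts, or 0.00278% of all counts. Library totals ran from 4.884 to 24.25 M counts, with M for mega, and had a median of 15.39 M. The floor used for single values was 3 counts, which equals 0.124 CPM (counts scaled to a common library size) at the largest total and 0.614 CPM at the smallest. A library held between 123 and 1100 counts of these hairpins, with a median of 375. At least 3 counts were found for a mean of 45.4 hairpins per library, from 11 in the smallest library, 24 months replicate 4, to 61. The floor covers counting error only, since the kit adds no molecular identifiers. The libraries carried the red cell microRNAs that fill blood RNA: the 4 hairpins mir-451a, mir-144, mir-486a and mir-486b were counted in every library.

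Of the 82 hairpins, 75 were counted at least once and 26 were counted in every library. The 7 never counted were mir-466j, mir-467h, mir-669g, mir-669i, mir-669j, mir-669k and mir-669n. A mean of at least 3 counts at some age was reached by 58. Read as means over the 25 libraries, mir-467d had 77.4 counts, mir-466d 12.7, mir-466f-3 12.4 and mir-669o 9.88. The 12 copies of mir-669a had 3.4 to 10.6 counts, the 10 of mir-467a 4.44 to 6.12, the 8 of mir-466b 3.44 to 5.92 and the 3 of mir-466c 5.28 to 5.72. The next hairpins were mir-466f-2 with a mean of 7.08 counts, mir-466h with 7.0, mir-467c with 6.76 and mir-466i with 6.72, each found in 24 or 25 libraries. Then came mir-669c with 5.64 counts, mir-466e with 5.44, mir-669f with 5.4, mir-466q with 5.36, mir-466a with 5.16 and mir-466p with 4.48. The weakest of the 58 were mir-669p-2 and mir-669p-1 (2.88 and 2.8), mir-467f (2.84), mir-669b (2.72), mir-297a-3 (2.6), mir-466k (2.6), mir-297a-4 (2.48), mir-297b (2.4), mir-669m-2 and mir-669m-1 (2.24 and 1.76) and mir-467b (1.56).

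By family, mir-669 held 33.8% of the hairpins' counts, mir-467 33.8%, mir-466 30.0% and mir-297 2.4%. The mir-467 share rested largely on mir-467d, which alone had 1934 of the 3640 mir-467 counts. Its mean level over 25 libraries was 5.01 CPM, while the next, mir-466f-3, was at 0.839 CPM. After these came mir-466d with a mean level of 0.807 CPM, mir-669a-9 with 0.662 CPM and mir-669o with 0.619 CPM. No correction for length was made, since mature microRNA reads are of like length.

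Copies of 1 microRNA mostly had like totals, and the split of reads between them varied from library to library about as much as counting noise. Without mir-669a-3, left out after its total was seen, the 11 other copies of mir-669a had totals from 210 to 265 counts, and their split across libraries gave a chi-square per degree of freedom of 0.931, where 1 is sampling noise alone. The 10 copies of mir-467a had totals of 111 to 153 counts with a chi-square per degree of freedom of 1.12. The 8 copies of mir-466b had 86 to 148 with 0.975, and the 3 of mir-466c had 132 to 143 with 0.939. Exceptions in the totals were large: mir-669a-3 had 85 counts, and the 4 copies of mir-466f ranged from 2 (mir-466f-4, on chromosome 13) to 311 (mir-466f-3). The chi-square asks only whether the split stays the same across libraries, not whether copies have like totals. It was 0.915 for mir-669a with mir-669a-3 kept in and 1.12 for mir-466f. Reads that fit several copies equally cannot be tied to 1 hairpin, and how the authors counted them is not stated in the sources used here. For that reason each age comparison below is also given with copies summed, a fit added after the data were seen.

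**Figure D2:**
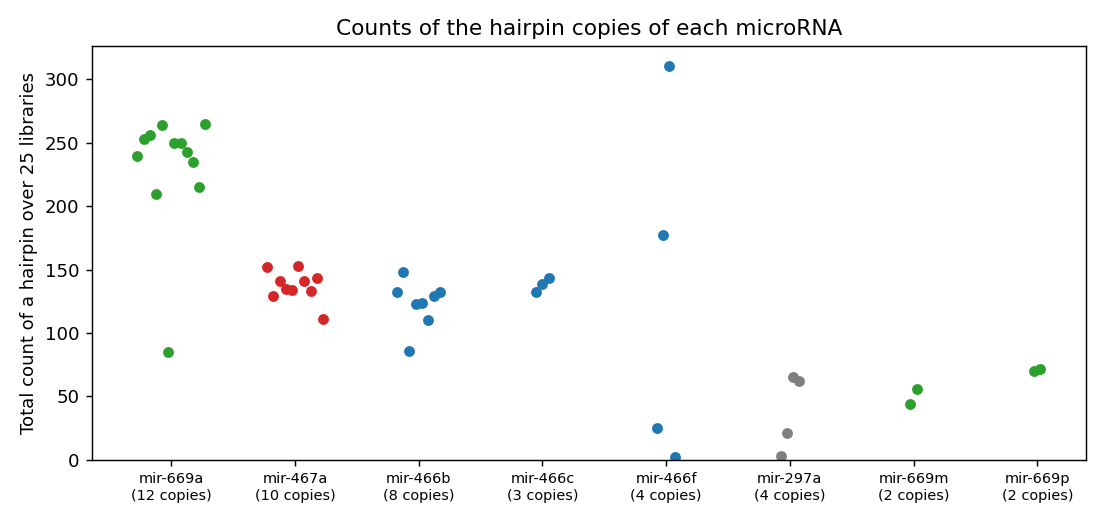
Total count over 25 libraries of each hairpin copy (points) of 8 microRNAs with several copies, coloured by family. mir-669d and mir-669d-2, with totals of 8 and 5 counts, also share a name and are not shown. The copies of mir-467a, mir-466b and mir-466c lie close together, whereas mir-669a-3 at 85 and the mir-466f copies stand apart from their namesakes.

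The summed level of all 82 hairpins had a lower mean at 2 months than at every later age, and the libraries of 24 months varied most. Levels are in CPM on library sizes scaled by TMM (trimmed mean of M-values), and sums carry no test. At 2 months the 5 libraries were at 20.1, 22.2, 23.0, 21.1 and 21.1 CPM. At 9 months they were at 20.97, 24.2, 26.9, 26.4 and 28.3 CPM, and at 15 months at 24.1, 21.8, 35.5, 29.4 and 24.7 CPM. At 24 months they were at 51.1, 28.8, 36.8, 21.6 and 30.7 CPM, and at 30 months at 25.7, 24.9, 23.2, 38.1 and 37.2 CPM. The 2-month libraries lay close together, and all 5 libraries of 30 months and 4 of 5 at each of the other ages stood above the highest of them.

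The mean summed level was 21.5 ± 1.12 CPM (SD, n = 5 here and at each age) at 2 months, 25.4 ± 2.87 at 9 months, 27.1 ± 5.47 at 15 months, 33.8 ± 11.1 at 24 months and 29.8 ± 7.22 at 30 months. Relative to 2 months the means were 1.18, 1.26, 1.57 and 1.39 times as high. The mean at 24 months leaned on replicates 1 and 3, and leaving out replicate 1 alone gave 29.5 CPM. Scaled by library totals alone the ratio to 2 months was 2.04 at 24 months and 1.62 at 30 months, since that scaling also moved the median tested precursor up by 0.36 and 0.24 log2 units. The 532 other precursors with a mean level under 1 CPM summed to 85.6 ± 5.7 CPM at 2 months and 80.8 ± 7.72 CPM at 30 months with TMM. By library totals those sums were 76.2 and 85.7 CPM.

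Sequencing lanes, named in the column headers, were mixed across ages. In each of the 5 lanes that held a 2-month library, that library had the lowest summed level. Lane 3 held none, and in it 9 months replicate 1 was at 20.97 CPM and 15 months replicate 2 at 21.8 CPM. Both lay within the range of the 2-month libraries, 20.1 to 23.0 CPM. The lanes regroup the same library values, so they are no separate check on the ages. In lane 4 it was at 20.1 CPM against 21.6 to 35.5 CPM for the other libraries, and in lane 7 at 21.1 against 24.9 to 51.1 CPM. By library totals this held in 4 of the 5 lanes. Each library has an index sequence of its own, shared neither within nor between ages, so index and age cannot be told apart.

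**Figure D3:**
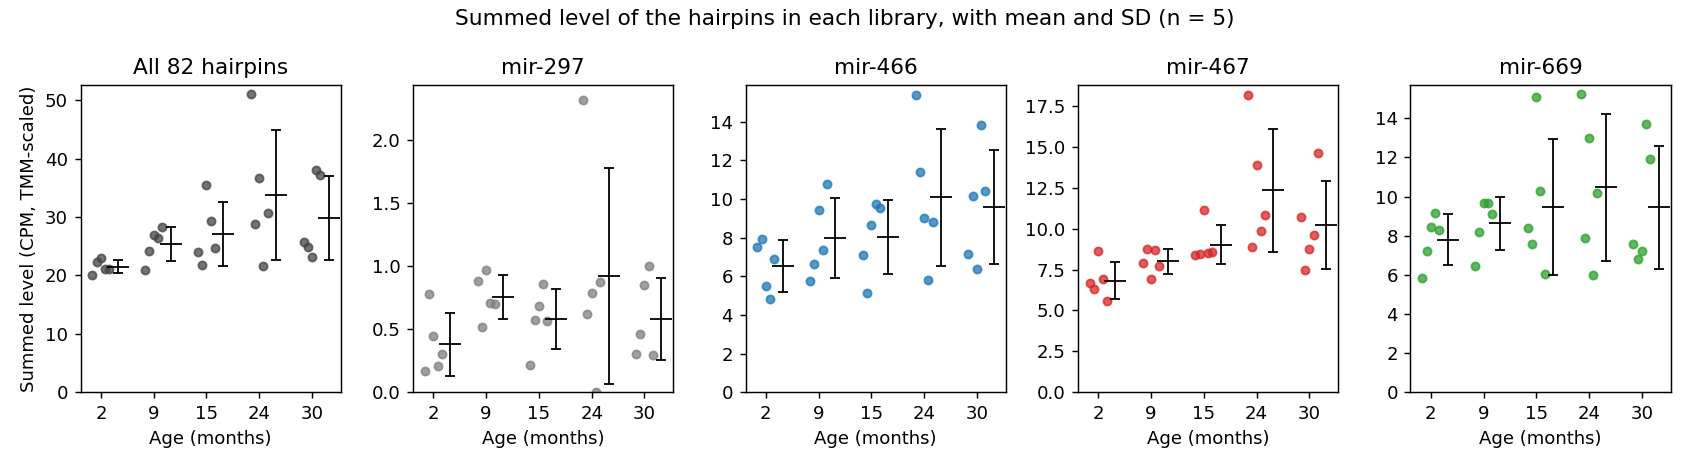
Summed level (CPM, TMM-scaled) of all 82 hairpins and of each family in every library (points) by age in months, with mean and SD (n = 5). For all hairpins the 2-month libraries lie between 20.1 and 23.0 CPM and those of 30 months between 23.2 and 38.1 CPM.

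All 4 families had a higher mean summed level at 30 than at 2 months. The mir-467 sum was 6.83 ± 1.14 CPM at 2 months, 7.99 ± 0.772 at 9 months, 9.01 ± 1.19 at 15 months, 12.3 ± 3.76 at 24 months and 10.2 ± 2.71 at 30 months. All 5 libraries of 24 months and 4 of 5 at 30 months were above the highest 2-month library for mir-467. The mir-466 sum came to 6.53 ± 1.33 CPM at 2 months and to 9.58 ± 2.96 CPM at 30 months, with 3 of 5 libraries above the highest of 2 months. The mir-669 sum came to 7.79 ± 1.3 CPM at 2 months and to 9.45 ± 3.14 CPM at 30 months, with 2 of 5 above. The mir-297 sum came to 0.38 ± 0.248 CPM at 2 months and to 0.582 ± 0.325 CPM at 30 months, and its ages overlapped throughout. Without mir-467d the sum of the other 81 came to 18.3 ± 1.53 CPM at 2 months and to 24.0 ± 6.7 CPM at 30 months, a ratio of 1.31.

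The ratio of 30 to 2 months in mean level differed between hairpins inside and outside Sfmbt2, although this difference was not tested. The 71 array hairpins summed to 20.1 ± 1.29 CPM at 2 months, 32.2 ± 10.7 at 24 months and 28.4 ± 6.62 at 30 months. At 9 months the array libraries were at 19.5, 23.0, 25.1, 24.6 and 26.0 CPM. At 15 months they were at 22.5, 20.8, 34.5, 27.6 and 23.0 CPM. The 10 elsewhere summed to 1.15 ± 0.363 CPM at 2 months, 1.46 ± 0.423 at 9 months, 0.975 ± 0.356 at 15 months, 1.21 ± 0.367 at 24 months and 1.13 ± 0.529 at 30 months. The ratio of 30 to 2 months was 1.41 for the array and 0.98 for the hairpins elsewhere. By library totals those ratios were 1.65 and 1.13.

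Detection was set side by side at raw and at equal depth. At the floor of 3 counts a mean of 46 hairpins was detected at 2 months and 38.6 at 30 months, where the mean total was 18.8 and 9.89 M counts. Thinned in expectation to the smallest library total, with no TMM scaling, 11 hairpins would have 3 counts at 2 months, 14.4 at 9 months, 17.1 at 15 months, 25.8 at 24 months and 20.9 at 30 months. The order of 2 and 30 months was opposite at raw and at equal totals. Equal totals do not make depth equal for the hairpins, as TMM factors ran from 0.803 to 0.961 at 2 months and from 0.907 to 1.23 at 30 months.

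mir-467d, the most abundant hairpin, was higher at 24 and 30 months than at 2 months. It lies at chr2:10507630-10507714 (plus strand, intron of Sfmbt2). At 2 months its level was 3.69, 1.63, 4.64, 3.55 and 2.6 CPM. At 9 months it was 5.3, 5.0, 3.16, 5.65 and 3.51 CPM, and at 15 months 4.32, 5.35, 4.2, 4.17 and 4.28 CPM. At 24 months it was 10.03, 3.98, 7.73, 7.21 and 6.19 CPM, and at 30 months 5.57, 3.78, 5.95, 4.3 and 9.43 CPM. The ages overlapped, as the lowest libraries of 24 and 30 months lay under the highest of 2 months. In edgeR's quasi-likelihood test across all precursors that passed the filter, mir-467d rose by 1.12 ± 0.26 log2 units (SE) at 24 months, with an adjusted p of 0.0073, and by 0.84 ± 0.27 at 30 months, with an adjusted p of 0.0399. Its slope was 0.34 ± 0.09 log2 units per 10 months (edgeR adjusted p = 0.00755), and the test for any age gave an adjusted p of 0.0491. At 9 and 15 months its log2 changes were 0.49 and 0.46, and neither passed (edgeR adjusted p = 0.622 and 0.81). Without 24 months replicates 1 and 3 its change at 24 months was 0.79 (edgeR adjusted p = 0.12), and without the 2-month group its slope was 0.28 (edgeR adjusted p = 0.226). The 30-month call ended without 2 months replicate 2 (adjusted p = 0.061) or without 30 months replicate 5 (adjusted p = 0.0986), in the same edgeR test, and also with no filter or with the 10 compared libraries alone. The call for any age ended without any of 7 single libraries, 2 months replicates 1, 2, 4 and 5 and 24 months replicates 1, 3 and 4.

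Only 17 of the 82 hairpins passed the filter on low counts: mir-467d, mir-467a-1, mir-466d, mir-466f-3, mir-669c, mir-669o and 11 of the 12 mir-669a copies. No statement about the other 65 can be made from these tests. For any age 1 of the 17, mir-467d, passed, against 7.99% of all precursors tested. At 9 and 15 months edgeR called 0 of the 17, against 2.07% and 1.48% of all tested. At an unadjusted p under 0.05 there were 0 and 1 of the 17, and DESeq2 and limma-voom also called 0. At 24 months 1 of 17 passed, against 12.1% of all tested (7.69% higher), and at 30 months 1 of 17, against 14.2% (9.17% higher). For the slope 2 of 17 passed, both upward, against 19.8% of all tested (10.7% upward), and 1 of the 2, mir-467a-1, passed the filter only through older libraries. These counts are too small to set apart from the shares of all precursors. At 30 months 0 of the 17 had groups without overlap in the higher direction, against 5.62% of all tested.

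As a description, the log2 change was above 0 for 12, 17, 17 and 14 of the 17 at 9, 15, 24 and 30 months, with medians of 0.29, 0.37, 0.6 and 0.32. Over all precursors tested the medians were -0.01, -0.03, 0.0 and -0.04. The 4 comparisons share the 2-month libraries, and 11 of the 17 are copies of 1 microRNA that share reads. Since the filter kept hairpins that were high at some age, these counts and medians support nothing about the 82.

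mir-467a-1 was tested only through its older libraries, so its slope supports nothing. It reached the level the filter asks for (0.65 CPM by library totals, in 5 libraries) in exactly 5 libraries, 1 of 15 months, 2 of 24 months and 2 of 30 months, and in none of 2 or 9 months. Its slope was 0.44 ± 0.15 log2 units per 10 months (edgeR adjusted p = 0.0442). Its level was 0.121 to 0.425 CPM at 2 months (2 to 6 counts), 0.311 to 0.975 CPM at 24 months and 0 to 0.794 CPM at 30 months, so the ages overlapped. The other 9 copies of mir-467a reached that level in 0 to 4 libraries and were not tested, although mir-467a-5 had a total of 153 counts against 152. mir-669c was likewise tested only through libraries of 15 and 24 months, and its slope did not pass. The mir-467a-1 slope lost its call in 10 of 35 alternatives. These included leaving out any of 7 single libraries (edgeR adjusted p from 0.0509 to 0.0712). The 7 were 2 months replicates 1, 3 and 5, 24 months replicates 1 and 5, and 30 months replicates 1 and 5.

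The remaining named hairpins did not pass in any comparison. mir-466f-3, at chr2:10471953-10472046, was at 0.206 to 0.992 CPM at 2 months, 0.582 to 1.72 CPM at 24 months and 0.596 to 1.93 CPM at 30 months. Its slope was 0.33 ± 0.13 log2 units per 10 months (edgeR adjusted p = 0.0718), and it passed on omission of 2 months replicate 2, 9 months replicate 5, 30 months replicate 1 or 30 months replicate 5, with adjusted p from 0.0378 to 0.0477. mir-466d, at chr2:10511967-10512062, was at 0.392 to 1.35 CPM at 2 months and 0.15 to 1.5 CPM at 30 months, with a slope of 0.16 ± 0.15 (edgeR adjusted p = 0.507). mir-669o, at chr2:10514300-10514395, was at 0.308 to 0.951 CPM at 2 months and 0.142 to 0.894 CPM at 30 months. Its slope was 0.01 ± 0.12 (edgeR adjusted p = 0.988). mir-297a-3, the most abundant of its family, was at 0 in 7 of 25 libraries and reached 16 counts only in 24 months replicate 1, so it was not tested.

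With copies summed, 9 microRNAs of these families were among 305 tested, and mir-466c showed the steepest slope of the 9. Summing joined only copies with the same letter. Mature strands of the array were not available here, so whether different letters share reads could not be checked. mir-466c was picked out after its values were seen. Its 3 hairpins lie at chr2:10481534-10481617, chr2:10483966-10484055 and chr2:10491336-10491425. At 2 months its summed level was 0.902, 0.581, 0.568, 0.777 and 0.697 CPM, from 8 to 16 counts. At 9 months it was 0.765, 0.883, 0.861, 0.8 and 1.1 CPM, and at 15 months 1.04, 0.784, 1.32, 1.23 and 1.42 CPM. At 24 months it was 1.59, 1.12, 0.856, 0.685 and 1.16 CPM, and at 30 months 1.52, 1.79, 1.06, 2.11 and 2.19 CPM, from 7 to 22 counts. All 5 libraries of 30 months lay above all 5 of 2 months, while the ages between overlapped with 2 months. mir-466c rose by 1.29 ± 0.23 log2 units at 30 months (edgeR adjusted p = 0.000495), with a slope of 0.41 ± 0.07 per 10 months (edgeR adjusted p = 0.000362). At 24 months its change of 0.65 did not pass (edgeR adjusted p = 0.0627). Both of its calls were kept in all alternatives run, 18 at 30 months and 35 for the slope, with edgeR, DESeq2 or limma adjusted p of at most 0.00363 and 0.0404. Single hairpins faced more alternatives. The summed fit was not run with the 10 compared libraries alone or with a filter at a mean of 1 CPM. Nor was it run with groups of near-identical counts reduced to single precursors.

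Of the other summed microRNAs, mir-466b (8 copies) had a mean level of 1.92 ± 0.481 CPM at 2 months, 3.47 ± 1.26 at 24 months and 2.67 ± 0.393 at 30 months. It rose by 0.91 ± 0.24 log2 units at 24 months (edgeR adjusted p = 0.0125), a call that ended without 24 months replicate 1 (adjusted p = 0.054). mir-467a (10 copies) had 2.71 ± 0.649 CPM at 2 months, 4.61 ± 1.92 at 24 months and 3.79 ± 0.89 at 30 months. It rose by 0.82 ± 0.25 log2 units at 24 months (edgeR adjusted p = 0.0304), and this call ended in 8 of 19 alternatives, the omission of 2 months replicate 1, 4 or 5 or 24 months replicate 1 or 3 among them (adjusted p from 0.0596 to 0.144). mir-467d, a single hairpin, had a change of 1.15 at 24 months and 0.85 at 30 months in this fit (edgeR adjusted p = 0.00649 and 0.0406). Its 30-month call in this fit ended on omission of 2 months replicates 2 or 5, or of 30 months replicate 5, with adjusted p from 0.0676 to 0.122. Slopes passed for mir-467a at 0.27 per 10 months and for mir-466b at 0.26 (edgeR adjusted p = 0.0202 and 0.0266). The mir-467a slope lost its call in 3 of 35 alternatives, with no filter (adjusted p = 0.0527), without the 2-month group (0.213) and without 24 months replicates 1 and 3 (0.0602). The mir-466b slope lost it in 6 of 35, without 2 months replicate 3 (adjusted p = 0.0578) or replicate 4 (0.0593), with upper quartile factors (0.0562), with no filter (0.0767), without the 2-month group (0.283) and without 24 months replicates 1 and 3 (0.0706).

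mir-669a (12 copies), the most abundant after summing, had 5.88 ± 0.749 CPM at 2 months, 7.9 ± 2.88 at 24 months and 7.33 ± 2.2 at 30 months. Its slope of 0.14 ± 0.07 per 10 months did not pass (edgeR adjusted p = 0.199), except with library totals, where it was 0.24 (adjusted p = 0.0286). mir-466f, mir-466d, mir-669c and mir-669o did not pass in any comparison. In counts, 1 of 9 passed for any age (background 6.56%), 3 at 24 months (13.4%, 8.85% higher), 2 at 30 months (17%, 11.8% higher) and 4 for the slope (20.3%, 12.5% upward). No test was made of 9 microRNAs against all others. At 9 and 15 months edgeR called 0 of 9 (background 1.64% at both ages), with 0 and 1 at an unadjusted p under 0.05, and DESeq2 and limma-voom called 0 as well. At 30 months 1 of 9, mir-466c, had groups without overlap in the higher direction, against 6.23% of the 305.

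**Figure D4:**
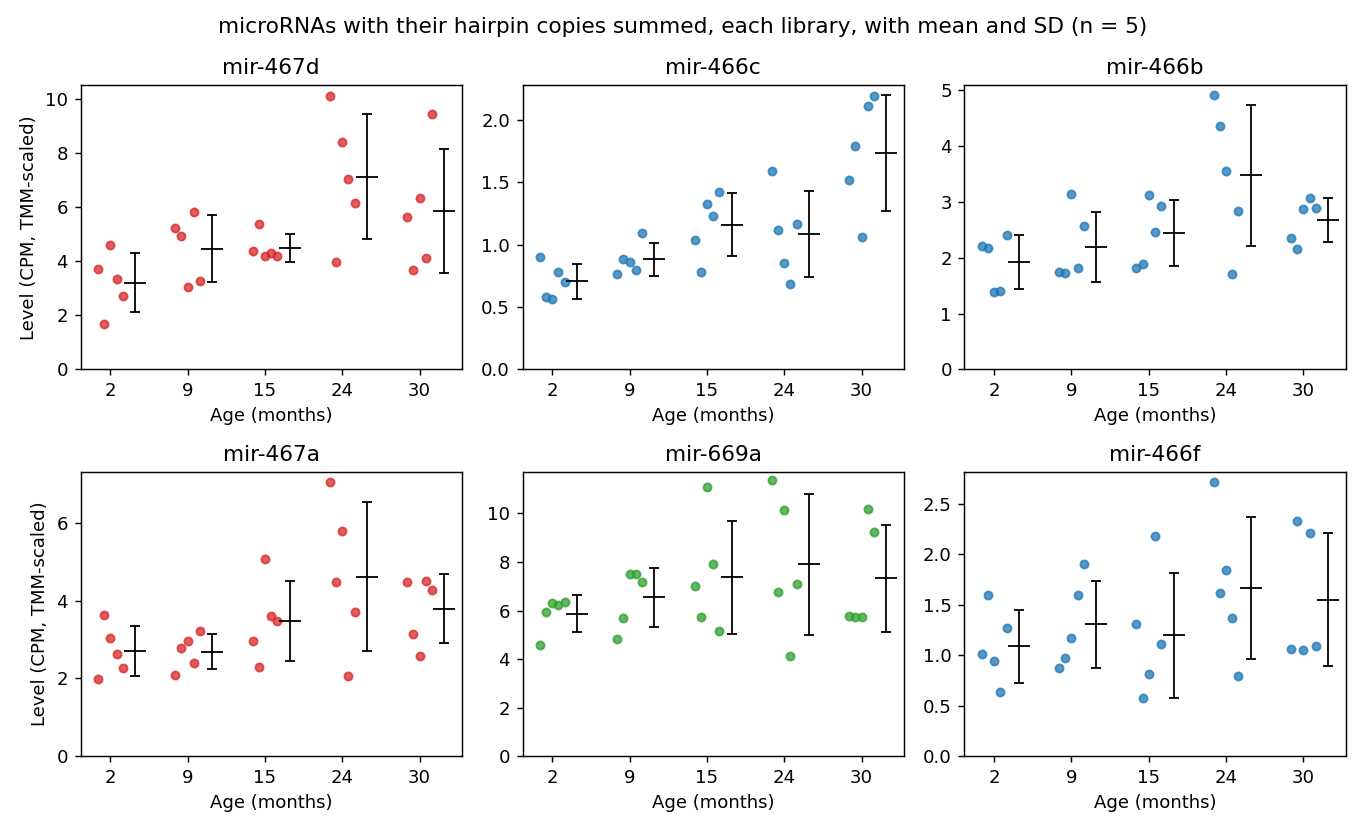
Level (CPM, TMM-scaled) of 6 microRNAs with hairpin copies summed, in every library (points) by age in months, with mean and SD (n = 5). For mir-466c the 5 libraries of 30 months (1.06 to 2.19 CPM) lie above the 5 of 2 months (0.568 to 0.902 CPM), while the ages of mir-669a overlap.

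**Figure D5:**
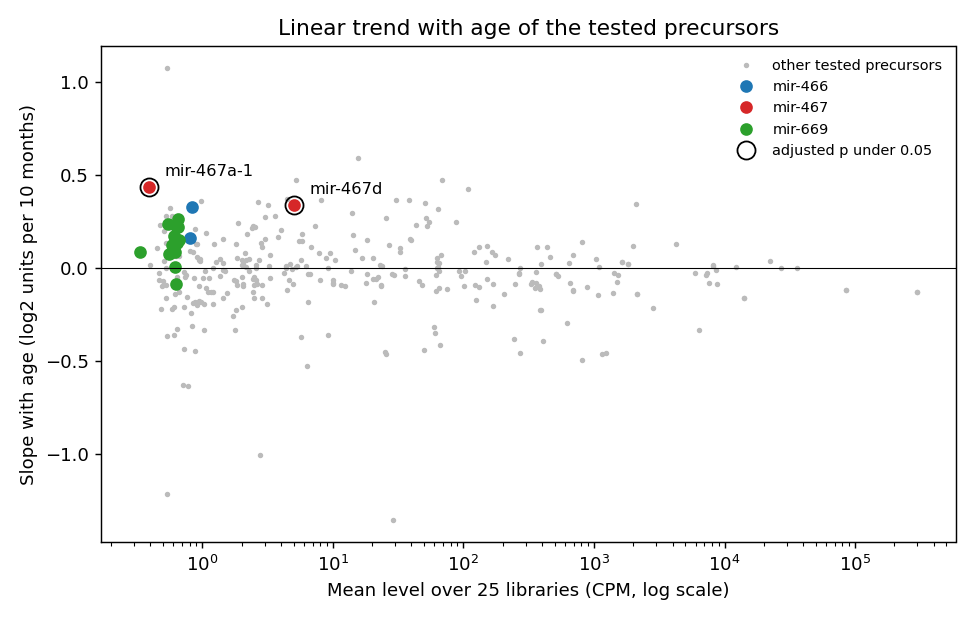
Slope with age (log2 units per 10 months) against mean level (CPM, log scale) of the tested precursors, with the 17 tested hairpins of these families coloured by family. Circles mark mir-467d (0.34) and mir-467a-1 (0.44), the hairpins with an adjusted p under 0.05.

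Other microRNAs, a list of 7 outside these families, served for comparison. They had a mature strand with a run of GU or CA repeats, or were added by name (mir-574 and mir-1187). The counts do not separate strands, so a change cannot be tied to the strand with the run. Of the 7, mir-1187, mir-6348 and mir-672 had too few counts, and 4 were tested. mir-32, a microRNA of the miR-25/92 seed group, fell by 1.70 ± 0.45 log2 units at 30 months (edgeR adjusted p = 0.0163), with a slope of -0.52 per 10 months (edgeR adjusted p = 0.00844). mir-3082, mir-3097 and mir-574 did not pass in any comparison, with changes of 0.03, 0.24 and -0.12 at 30 months. The mir-290 to mir-295 cluster, like the Sfmbt2 array known from early embryo and placenta, had 9 precursors in the table with totals of 0 to 6 counts each, so none was tested.

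Blood cell markers moved with age too. mir-223, typical of neutrophils and monocytes, was at 55.1 to 62.5 CPM at 2 months, 98.1 to 161 at 9 months and 66.3 to 90.9 at 15 months. It was at 113 to 164 CPM at 24 months and 109 to 208 CPM at 30 months. It rose by 0.97 ± 0.17 log2 units at 9 months (edgeR adjusted p = 0.000924). At 15 months its change of 0.49 ± 0.17 did not pass (edgeR adjusted p = 0.354). It rose by 1.19 ± 0.17 log2 units at 24 months and by 1.44 ± 0.17 at 30 months (edgeR adjusted p = 3.02e-05 and 1.65e-06). Of the 4 red cell hairpins 2 passed downward at 24 months and 1 at 30 months. Their sum ran from 717002 to 858407 CPM at 2 months, 463050 to 775811 at 24 months and 501702 to 778398 at 30 months. mir-486a and mir-486b had almost equal mean counts (4511411 and 4508579), so the sum may count the same reads more than once. Neither passed at 24 or 30 months (edgeR adjusted p = 0.119 and 0.284 for both). mir-126a, found in platelets and endothelium, fell by 1.35 ± 0.34 log2 units at 30 months (edgeR adjusted p = 0.0101), from 10.3 to 14.6 CPM at 2 months to 2.67 to 7.22 CPM. The lymphocyte marker mir-150 did not pass, at 268 to 473 CPM at 2 months and 148 to 371 CPM at 30 months. No marker was at 0 in any library. The part of these shifts in the changes of mir-467d and mir-466c was not tested. In bulk blood, fewer cells of a type and less RNA per cell cannot be told apart.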

How the data were processed

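Small RNA libraries of mouse blood, 25 in all, were compared by age as given in the labels. The authors deposited 1 table of raw counts, reads per microRNA hairpin, with the 2 strands not separated. Per the submitters' processing notes, Trimmomatic 0.36, SAMtools 1.3.1-9 and bcl2fastq 1.8.4 were among the tools. Not given in the sources used here are the aligner, the counter, strand use and the rule for reads that fit several hairpins.

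Tests were edgeR 4.0.16 quasi-likelihood F tests (R 4.3.3) with TMM factors, filterByExpr on age, robust dispersion and 1 fit of all 25 libraries. P-values were adjusted by Benjamini-Hochberg over all 338 tested precursors (305 with copies summed), with a threshold of 0.05. Tests are two-sided. CPM uses TMM-scaled library sizes. DESeq2 1.42.0 and limma 3.58.1 were alternatives. Library totals ran from 4.884 to 24.25 M. In 50 same-age pairs of libraries, chi-square per degree of freedom was at least 124.9, far over sampling noise. The scripts were tested on simulated data.

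The members and lists were chosen with earlier results of these data known. Values in every library were given for the 5 hairpins with the highest mean level (copies standing for 1), the most abundant of each family and every hairpin past the threshold. Sums over families carry no test. Copies were summed in a fit added after the data were seen.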

Additional observations from a re-analysis of the deposited data

Results flagged for a closer look

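Of 80 groups of 5 libraries examined, 4 held a library whose gap to the nearest other one was large against the group's range (over 0.71 of it). Chance gives about 1 in 20 such groups. The summed mir-467 level at 15 months was 11.1 CPM in replicate 3, with the others at 8.37 to 8.56 CPM. At the same age mir-467d was at 5.35 CPM in replicate 2, with the others at 4.17 to 4.32 CPM. mir-466d at 2 months was at 1.35 CPM in replicate 2, with the others at 0.392 to 0.573 CPM. mir-669a with copies summed was at 4.56 CPM in 2 months replicate 1, with the others at 5.95 to 6.33 CPM.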

How the results depend on the processing

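No paired analysis was possible because the replicate numbers only count libraries within an age and link none between ages. Counts of hairpins called changed as follows. For any age (1 as reported) there were 0 with limma-voom, 0 without 24 months replicates 1 and 3 and 0 without the 2 libraries under 6 M counts. At 24 months (1) there were 6 with library totals, 3 with no filter, 2 with lane in the fit, 0 without 24 months replicates 1 and 3 and 2 without the 2 small libraries. At 30 months (1) there were 2 with library totals, 0 with no filter, 0 with the 10 compared libraries alone and 4 without the small libraries. For the slope (2) there were 6 with library totals, 1 with a filter at a mean of 1 CPM, 1 with limma-voom, 0 without the 2-month group and 6 without the small libraries. With 1 library left out at a time the counts ran from 0 to 2 for any age, 1 to 2 at 24 months, 0 to 2 at 30 months and 1 to 5 for the slope. There were 2 hairpins called at 24 months without 2 months replicate 3 or 4, and at 30 months without 30 months replicate 1, 2 or 3. The slope gave 1 without 2 months replicate 1, 3 or 5 or 24 months replicate 1, and gave 5 without 30 months replicate 2 or 3. In this fit of single hairpins, library totals moved all precursors: 69 were called higher and 3 lower at 24 months against 26 and 15 with TMM, and 51 and 6 at 30 months against 31 and 17. The slope gave 80 upward and 9 downward calls against 36 and 31.

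With copies summed, any age (1) gave 2 with relative log expression factors, 4 with library totals, 2 with upper quartile factors, 2 with no filter, 3 with DESeq2, 2 with lane in the fit and 3 without the small libraries. At 24 months (3) there were 6 with library totals and 0 without 24 months replicates 1 and 3. At 30 months (2) there were 4 with library totals, 1 with no filter and 1 with limma-voom. For the slope (4) there were 2 with no filter, 1 without the 2-month group and 2 without 24 months replicates 1 and 3. With 1 library left out the counts ran from 1 to 3, 1 to 4, 1 to 2 and 3 to 4 in the same order.

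Directions turned only for uncalled values among the named hairpins. mir-466d at 30 months was -0.000681 with limma-voom and ran from -0.196 to 0.667 with 1 library left out. mir-669o at 30 months was 0.13 with library totals and 0.14 without the small libraries, and ran from -0.234 to 0.141 with 1 left out. Its slope per 10 months was -0.00234 with no filter, -0.000599 with DESeq2 and -0.0326 without 24 months replicates 1 and 3, and ran from -0.0299 to 0.0753 with 1 left out. The summed level at 2 months was 19.2 CPM by library totals. Detection was 61.1 hairpins per library at 1 count and 11.4 at 10 counts. Causes of these shifts were not tested. Depth limits the tests to 17 of 82 hairpins, and values under 3 counts cannot be told from 0.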
